A study of Homo sapiens with 8 samples.

Results

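Mitochondrial ribosomal protein genes were taken as the 78 genes of 57189 in the count files whose symbol is MRPL or MRPS followed by a number and at most 1 letter from A to C. Of these, 49 carry MRPL names (large subunit) and 29 carry MRPS names (small subunit). The samples were 2 human lines of T-cell acute lymphoblastic leukemia (T-ALL), CUTLL1 (CUTTL1 in the labels) and TIB153, each grown with PKF118-310 or as a control in RPMI medium with fetal bovine serum, from which polyadenylated RNA was sequenced. PKF118-310 is an inhibitor that keeps β-catenin from its TCF partners on DNA, and the labels name no other agent or engineered allele in any of the 4 groups. Each group held 1 library, sequenced in 2 lanes that were summed, so the 2 lines were the only replicates of the treatment.

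The mitochondrial ribosome, or mitoribosome, sits at the inner face of the inner mitochondrial membrane and makes the few proteins encoded by mitochondrial DNA, all of them subunits of the respiratory chain and ATP synthase. Its ribosomal RNAs come from mitochondrial DNA, whereas its proteins are encoded in the nucleus, made in the cytosol and imported. Part of the proteins have a counterpart in bacterial ribosomes (universal names that begin with u or b, such as uL3m), and the rest are named with m and a subunit letter (such as mL42). Among the members here, 46 had a name of the bacterial kind and 32 a mitochondria-specific one. The MRPL and MRPS symbols do not always follow the particle: the products of MRPS18A (mL66) and MRPS30 (mL65) are built into the large subunit, and that of MRPS36 is not a ribosomal protein in human structures.

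Library totals lay between 7609427 and 8140391 counts, where 3 counts correspond to between 0.369 and 0.394 CPM (the read count scaled to the library's total). The lanes of a library differed by no more than sampling noise, with chi-square p between 0.0845 and 0.786 over genes. Markers of the T lineage summed to between 1710 and 2410 CPM, while erythroid markers summed to at most 0.128 CPM, myeloid markers to at most 0.642 CPM, epithelial markers to at most 6.44 CPM and stromal markers to at most 5.77 CPM. The B cell list was at 14.2 and 108 CPM with PKF118-310 against 10.6 and 78.2 CPM in control CUTLL1 and TIB153, with 1 of its 4 genes above 5 CPM and MS4A1 at 0 in every library. The part of these markers in the results was not tested.

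In the promoters of the members, 5 short motifs of transcription factors were searched on both strands of the 300 bases that RefSeq (GRCh38.p14) places from 250 bases before to 50 bases after a transcription start. A total of 69 members matched an entry, with 85 promoters because 11 of them have more than 1 start. The ETS motif CCGGAAG occurred in 33 of the 85 promoters (38.8%), against 10.3% of all 35116 promoters and 17.6% of the promoters of genes that were tested. The YY1 core GATGGCG occurred in 18.8% of members' promoters, against 4.2% of all promoters and 7.05% of those of tested genes. The NRF1 core GCATGCG occurred in 8.24%, against 3.91% and 5.97%, and the E-box CACGTG in 10.6%, against 7.26% and 9.57%. The TCF/LEF motif CTTTGAT, the motif class bound by the partners of β-catenin, occurred in 0 of 85 promoters, against 2.62% of all promoters and 1.59% of those of tested genes. Its absence says only that these letters are not in this window.

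The following 250 bases before the start are shown because they belong to 3 members that fell across lines (MRPL3, MRPL20 and MRPL42) and to 2 members that were not called (MRPL22 and MRPS18A), with motif matches in capitals. They lie on hg38 coordinates at chr3:131502972-131503221 (minus strand), chr1:1407294-1407543 (minus), chr12:93467264-93467513 (plus), chr5:154940823-154941072 (plus) and chr6:43687792-43688041 (minus), and hold at most 26 bases annotated as exon.
MRPL3: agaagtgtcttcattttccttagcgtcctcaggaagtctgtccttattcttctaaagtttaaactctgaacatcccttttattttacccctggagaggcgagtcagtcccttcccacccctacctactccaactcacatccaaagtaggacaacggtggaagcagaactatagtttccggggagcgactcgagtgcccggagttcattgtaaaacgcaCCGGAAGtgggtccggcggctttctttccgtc
MRPL20: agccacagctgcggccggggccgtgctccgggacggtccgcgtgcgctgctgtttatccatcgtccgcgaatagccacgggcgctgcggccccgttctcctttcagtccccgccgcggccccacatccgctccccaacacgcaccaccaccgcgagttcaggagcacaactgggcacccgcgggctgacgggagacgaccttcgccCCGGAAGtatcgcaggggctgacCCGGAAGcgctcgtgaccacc
MRPL42: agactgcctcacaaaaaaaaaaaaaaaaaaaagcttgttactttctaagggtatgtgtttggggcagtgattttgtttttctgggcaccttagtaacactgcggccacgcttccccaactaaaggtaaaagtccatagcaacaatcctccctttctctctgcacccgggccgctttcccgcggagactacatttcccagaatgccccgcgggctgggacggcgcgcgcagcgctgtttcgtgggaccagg
MRPL22: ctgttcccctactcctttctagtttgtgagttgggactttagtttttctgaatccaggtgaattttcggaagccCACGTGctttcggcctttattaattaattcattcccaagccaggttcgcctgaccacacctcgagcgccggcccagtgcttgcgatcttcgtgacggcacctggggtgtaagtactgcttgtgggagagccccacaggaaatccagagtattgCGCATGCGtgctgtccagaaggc
MRPS18A: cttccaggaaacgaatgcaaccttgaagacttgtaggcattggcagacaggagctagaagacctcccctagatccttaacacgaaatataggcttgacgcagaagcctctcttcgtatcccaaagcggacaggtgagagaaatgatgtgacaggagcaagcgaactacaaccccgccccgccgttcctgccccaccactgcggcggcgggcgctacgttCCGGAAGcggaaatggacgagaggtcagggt
MRPL3 and MRPS18A each hold 1 ETS match, 32 and 31 bases before the start, and MRPL20 holds 2, at 44 and 21 bases. The capitals of MRPL22 mark an E-box 176 bases before the start and the NRF1 core, whose matches on both strands overlap. The YY1 matches of MRPL42, MRPL22 and MRPS18A begin past the start, in bases that are not shown, and MRPL42 has no other match. Among the 9 members that fell and had a promoter entry, 3 held the ETS motif, 1 the YY1 core and none the NRF1 core or the E-box. Of all 69 members with an entry, 43.5% held the ETS motif, 23.2% the YY1 core, 10.1% the NRF1 core and 13.0% the E-box. The median log2 change across lines, described next, was −0.20 for members with an ETS match and −0.24 for those without, and −0.10 and −0.23 for those with and without the YY1 core.

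In the control libraries members ranged over more than 2 orders of magnitude, with a median of 57.5 CPM in CUTLL1 (0.526 to 191 CPM) and 62.8 CPM in TIB153 (0.642 to 201 CPM). A total of 71 members exceeded 10 CPM in every library. Per kilobase of exon, scaled to the same total in each library, the highest were MRPS34 (mS34), at 434 and 404 with PKF118-310 against 517 and 435 in control CUTLL1 and TIB153, MRPL51 (mL51), at 276 and 311 against 398 and 384, and MRPL3 (uL3m, which reaches towards the peptidyl transferase center), at 238 and 265 against 317 and 330. With the length of the principal transcript in place of all exons, an alternative chosen after seeing the data, MRPL20, MRPL23 and MRPL3 were the highest, at a control mean of 399, 317 and 300, since exon unions of 2788 and 2975 bases for MRPL20 and MRPL23 shrink to transcripts of 721 and 736 bases. The lowest per length were MRPS24, MRPL46 and MRPL38, at a control mean of 1.0, 3.98 and 4.13, and MRPS24 and MRPL38 remained the lowest with principal transcripts, where MRPL46 ranked 74 of 78.

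Several low values belong to genes that share sequence with another gene on the same strand, where the counting may leave shared reads out. MRPS24 (uS3m) overlaps the readthrough gene URGCP-MRPS24 and had 2 and 4 reads with PKF118-310 against 4 and 5 reads in control CUTLL1 and TIB153. The readthrough gene had 0 reads in every library, and MRPS24 was the only member that did not pass the filter on low counts. MRPL12 (bL12m, the protein of the flexible stalk that recruits translation factors) shares 68.2% of its exonic bases with AC139530.2, MRPL53 45.2% with CCDC142, MRPL38 37.5%, MRPS28 35.8% and MRPS17 27%. These 5 genes had a median of 5.45 CPM over the libraries, against 56.6 CPM for all members tested, and their levels and changes are uncertain.

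Levels in the control libraries of the lines were close for most members. The log2 ratio of TIB153 over CUTLL1 had a median of 0.11, and 75 of 78 members lay within 1.5-fold. MRPL40 (mL40, of the central protuberance) was the only member past 2-fold, at 36.3 CPM in TIB153 and 15.4 CPM in CUTLL1 control cells (log2 ratio 1.22, 1 library each).

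Members fell more often than they rose when PKF118-310 was compared with control across both lines. Of the 77 members tested, 10 fell and 0 rose in edgeR's quasi-likelihood test with cell line as a block (adjusted p under 0.05, n = 2 lines), which is 13.0% of members against 6.78% of all 13280 genes that fell and 6.11% that rose. At an unadjusted p under 0.05, 19 of the 77 members were lower and 1 was higher, where 1966 of all 13280 genes were lower and 1847 higher. DESeq2's Wald test called 1 fallen member (MRPS27) and 0 risen, 1.35% of the 74 members to which it gave an adjusted p, against 2.44% of the 10190 genes with one, so that by this test the share of fallen members was not above that of all genes. The log2 change was below 0 for 67 of 77 members, with a median of −0.21 (quartiles −0.41 and −0.06, range −0.71 to 0.47), against a median of 0.0 and 6637 of 13280 below 0 over all genes tested. The count of fallen members was 3 with scaling to total counts alone (3.9% of members, against 4.22% of all genes), where calls over all genes were 849 rises and 560 falls against 812 and 900 with TMM scaling, and it was 0 without the line block, a fit that called 0 of 13280 genes.

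The counts also bear on how many transcripts of these genes the libraries hold in all. Reads on members made up 0.41% of all reads in CUTLL1 with PKF118-310 against 0.476% in control, and 0.456% in TIB153 with PKF118-310 against 0.501% in control. The log2 ratio of the summed members was −0.26 in CUTLL1 (95% counting interval −0.29 to −0.24) and −0.20 in TIB153 (−0.22 to −0.18). Counts are relative, so fewer transcripts per cell and a larger pool of other transcripts cannot be told apart, and the intervals cover counting error only.

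MRPS27 (mS27), a pentatricopeptide repeat protein of the small subunit encoded on chromosome 5 (72219409 to 72320646), fell the most of the called members. It had 72.6 CPM with PKF118-310 against 104 CPM in control CUTLL1 and 80.2 CPM with PKF118-310 against 138 CPM in control TIB153. Both treated libraries lay below both control libraries, and the log2 change was −0.71 ± 0.13 (SE, n = 2 lines, edgeR adjusted p = 0.00569, range over 7 alternative fits 8.53e-06 to 0.721). It was called in 6 of those 7 fits, all but the one without the line block. MRPS9 (uS9m), a protein of the small subunit head on chromosome 2 (105037983 to 105099960), had 53.8 CPM with PKF118-310 against 66.5 CPM in control CUTLL1 and 42.4 CPM with PKF118-310 against 63.7 CPM in control TIB153. Its treated values lay below both controls, with a log2 change of −0.50 ± 0.15 (SE, n = 2 lines, edgeR adjusted p = 0.0465), and it was called in 2 of 7 alternative fits.

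Among large subunit members, those at the polypeptide exit tunnel and the L1 stalk had the lowest changes of the called genes. MRPL1 (uL1m, the protein of the L1 stalk that deacylated tRNA passes, chromosome 4, 77862520 to 77952790) had 24.7 CPM with PKF118-310 against 34.96 CPM in control CUTLL1 and 35.13 CPM with PKF118-310 against 55.1 CPM in control TIB153, so that the groups overlapped between lines but not within a line (log2 change −0.63 ± 0.17, SE, n = 2 lines, edgeR adjusted p = 0.0261). MRPL23 (uL23m, at the tunnel exit, chromosome 11, 1947278 to 1984522) had 56.5 CPM with PKF118-310 against 77.5 CPM in control CUTLL1 and 70.3 CPM with PKF118-310 against 101.4 CPM in control TIB153 (log2 change −0.55 ± 0.14, SE, n = 2 lines, edgeR adjusted p = 0.0196). Both treated libraries were below both controls. MRPL24 (uL24m, also at the tunnel exit, chromosome 1, 156737303 to 156741590) had 42.4 CPM with PKF118-310 against 57.8 CPM in control CUTLL1 and 47.5 CPM with PKF118-310 against 66.2 CPM in control TIB153 (log2 change −0.52 ± 0.15, SE, n = 2 lines, edgeR adjusted p = 0.0372).

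The remaining called members were MRPL3, MRPL4, MRPL20, MRPL42 and MRPL51. MRPL3 (chromosome 3, 131462212 to 131502983), the member with the highest CPM in both control libraries, had 143 CPM with PKF118-310 against 191 CPM in control CUTLL1 and 164 CPM with PKF118-310 against 201 CPM in control TIB153. MRPL4 (uL4m, which lines the tunnel interior in bacterial ribosomes, chromosome 19, 10251901 to 10260045) had 85.8 CPM with PKF118-310 against 121 CPM in control CUTLL1 and 77.6 CPM with PKF118-310 against 100.9 CPM in control TIB153. In both genes the treated libraries lay below both controls, as they did in the next 3. MRPL20 (bL20m, chromosome 1, 1401908 to 1407313) had 85.1 CPM with PKF118-310 against 113 CPM in control CUTLL1 and 81.3 CPM with PKF118-310 against 108 CPM in control TIB153. MRPL51 (chromosome 12, 6491886 to 6493841) had 94.6 CPM with PKF118-310 against 137 CPM in control CUTLL1 and 109 CPM with PKF118-310 against 134 CPM in control TIB153. MRPL42 (chromosome 12, 93467488 to 93516213) had 111 CPM with PKF118-310 against 127 CPM in control CUTLL1 and 97.4 CPM with PKF118-310 against 142 CPM in control TIB153, the larger difference being in TIB153. The log2 changes of these 5 genes ran from −0.49 (MRPL4) to −0.41 (MRPL3), with SE from 0.12 to 0.13 and edgeR adjusted p from 0.0244 (MRPL4) to 0.0478 (MRPL42). MRPL51 shares 31.3% of its exonic bases with NCAPD2 on the other strand, and whether the counting used strand is not known here. Just inside the threshold stood MRPL42, and just outside it MRPL28 (bL28m), with a log2 change of −0.42 and an adjusted p of 0.0523.

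Below the threshold, 9 further members had an unadjusted p under 0.05 with a lower level: MRPL28, MRPL47 (uL29m, at the exit tunnel), MRPL35, MRPL27 (bL27m, whose tail reaches the peptidyl transferase center), MRPL57 (mL63), MRPS14 (uS14m), MRPL13, MRPS16 and MRPL19. Their log2 changes ran from −0.46 (MRPS14) to −0.29 (MRPL19), with edgeR adjusted p from 0.0523 (MRPL28) to 0.169 (MRPL19). At this p, 1966 of all 13280 genes tested were lower. All 9 were lower beyond counting error in both lines. The same 4 libraries gave the p by which they were picked, so this is no separate support. MRPL27, for example, had 29.9 CPM with PKF118-310 against 39.95 CPM in control CUTLL1 and 34.5 CPM with PKF118-310 against 44.0 CPM in control TIB153, and MRPS16 (bS16m) had 105 CPM with PKF118-310 against 122 CPM in control CUTLL1 and 103 CPM with PKF118-310 against 125 CPM in control TIB153.

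**Figure D1:**
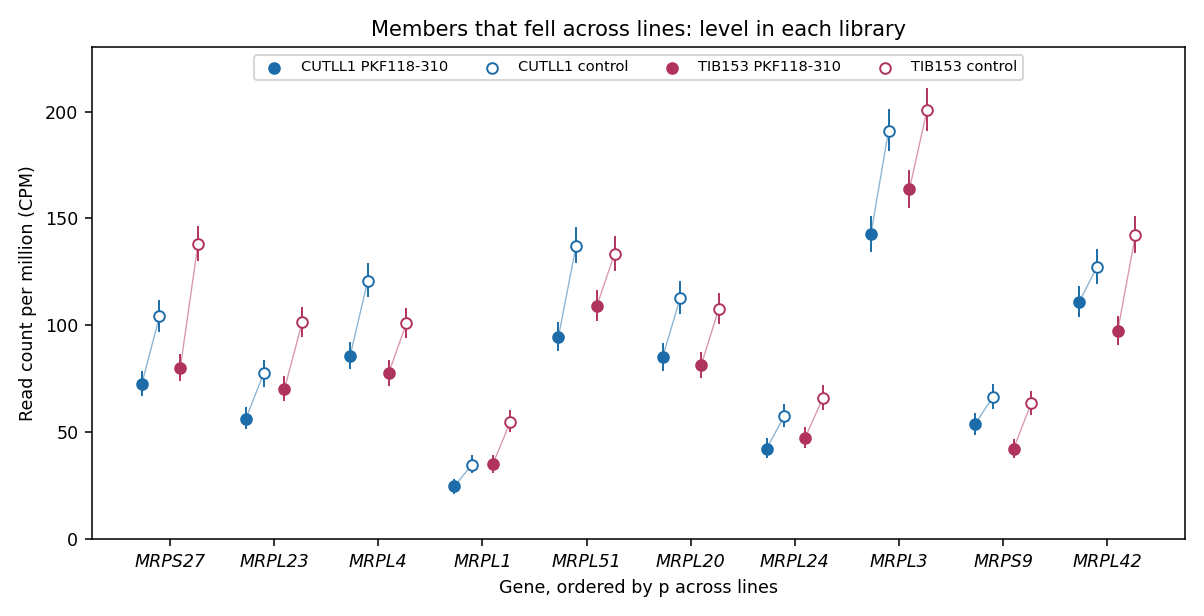
CPM (vertical axis) of the 10 members that fell across lines, ordered by p, in CUTLL1 (blue) and TIB153 (red), with PKF118-310 as filled and control as open points, 1 library each. Bars are 95% Poisson intervals, which cover counting error only, and in each gene the filled point lies below the open point of its line, MRPS27 being at 80.2 against 138 CPM in TIB153.

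At the other end no member was called. MRPL10 (uL10m, the base of the stalk) had 66.9 CPM with PKF118-310 against 57.8 CPM in control CUTLL1 and 83.5 CPM with PKF118-310 against 54.7 CPM in control TIB153, with both treated libraries above both controls (log2 change 0.36 ± 0.15, SE, n = 2 lines, edgeR adjusted p = 0.135). MRPL38 (mL38) had 3.76 CPM with PKF118-310 against 3.15 CPM in control CUTLL1 and 6.14 CPM with PKF118-310 against 3.59 CPM in control TIB153 (log2 change 0.47 ± 0.38, SE). MRPL46 (mL46) had 4.89 CPM with PKF118-310 against 5.26 CPM in control CUTLL1 and 11.1 CPM with PKF118-310 against 6.16 CPM in control TIB153 (0.35 ± 0.34, SE). Both rest on at most 90 reads a library, and MRPL46 lay above its control in TIB153 but not in CUTLL1. MRPL22 (uL22m, at the tunnel), MRPS30 and MRPS15 (uS15m) lay near 0, at log2 changes of 0.12, 0.08 and 0.06. At the low end, MRPS28 (bS1m), MRPS17 (uS17m) and MRPL12 had log2 changes of −0.65, −0.63 and −0.55 with SE of 0.34, 0.30 and 0.30. None of these 3 passed the test, and each shares over 25% of its exonic bases with another gene.

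Within CUTLL1, 47 of 77 members were lower with PKF118-310 beyond counting error and 1 was higher, meaning that the 95% interval of the log2 ratio excluded no change. The lower members were 61.0% of those tested, where 23.9% of all genes were lower and 23.3% were higher by that measure. The members' median log2 ratio was −0.27 (range −0.82 to 0.48), against 0.0 for all genes. Within TIB153, 35 members (45.5%) were lower and 3 were higher, where 28.7% of all genes were lower and 25.2% higher. Their median log2 ratio was −0.16 (range −0.89 to 0.78), against −0.01 for all genes. These counts depend on depth, and the median member lay at 56.6 CPM against 31.8 CPM for the median gene tested.

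The ratios of both lines had the same sign for 58 of 77 members (75.3%), near the 70.8% of all genes tested, with both below 0 for 53 members and both above 0 for 5. A total of 27 members (35.1%) were lower in both lines beyond counting error, against 15.7% of all genes, and 0 were higher in both, against 13.1% of all genes. Of the others, 30 differed from control beyond counting error in 1 line only, 19 in neither line and 1 in opposite directions. Over the 77 members the ratios of the lines correlated with a Pearson's r of 0.478, against 0.475 over all genes tested. Genes are not independent replicates, and all points share the same 4 libraries.

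**Figure D2:**
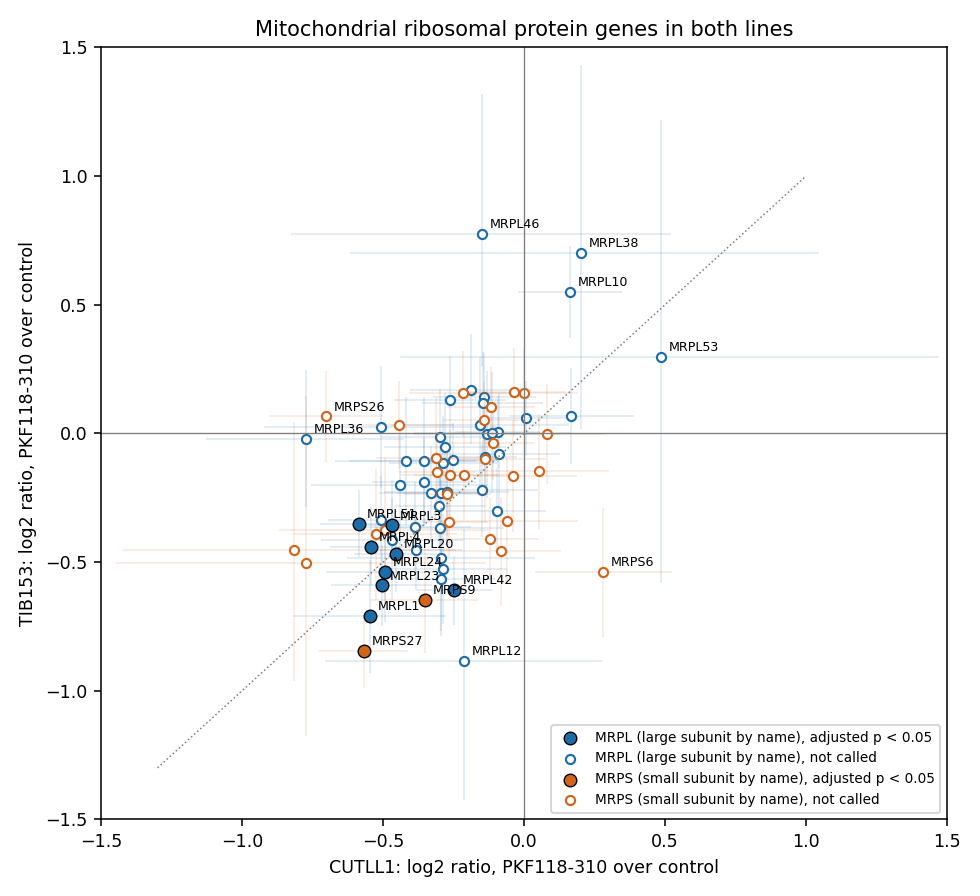
Log2 ratios, PKF118-310 over control, of 77 members in CUTLL1 (horizontal) and TIB153 (vertical), MRPL in blue and MRPS in orange, filled where adjusted p was under 0.05. Thin lines are 95% counting intervals and the dotted line marks equal ratios. The called members lie in the lower left, and MRPS6 lies at the lower right, at 0.28 and −0.54.

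For 8 members the intervals of the lines did not overlap (10.4% of 77, against 19.6% of all genes tested), and 6 of them had the lower ratio in CUTLL1. MRPS26 (mS26) had 42.2 CPM with PKF118-310 against 66.4 CPM in control CUTLL1, a log2 ratio of −0.70, and 70.1 CPM with PKF118-310 against 64.2 CPM in control TIB153, a ratio of 0.07. MRPL36 (bL36m) had 14.1 CPM with PKF118-310 against 23.3 CPM in control CUTLL1 (−0.77) and 29.97 CPM with PKF118-310 against 29.1 CPM in control TIB153 (−0.02). MRPS21, MRPL34, MRPL10 and MRPS2 were the others with the lower ratio in CUTLL1, and MRPL42 and MRPS6 had the lower ratio in TIB153. With 1 library per group these differences between lines have no test.

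MRPS6 (bS6m) was the only member whose intervals excluded no change in opposite directions. It had 40.9 CPM with PKF118-310 against 32.6 CPM in control CUTLL1 (log2 ratio 0.28, interval 0.04 to 0.52) and 28.8 CPM with PKF118-310 against 40.0 CPM in control TIB153 (−0.54, interval −0.79 to −0.29). SLC5A3, a myo-inositol transporter gene that overlaps MRPS6 on the same strand, had 1480 reads with PKF118-310 against 873 in control CUTLL1 (0.65) and 1021 with PKF118-310 against 1067 in control TIB153 (−0.19). MRPS6 shares 9.6% of its exonic bases with other genes, and the part of that overlap in its values was not tested.

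Genes of both subunits lay mostly below 0. Of 49 MRPL genes 8 fell (16.3%) and of 28 MRPS genes tested 2 fell (7.14%), against 6.78% of all genes, with median log2 changes of −0.25 and −0.20. Below 0 were 42 of 49 MRPL genes and 25 of 28 MRPS genes. In CUTLL1 the medians were −0.29 for MRPL and −0.22 for MRPS. There 31 MRPL genes (63.3%) and 16 MRPS genes (57.1%) were lower beyond counting error, against 23.9% of all genes. In TIB153 the medians were −0.19 and −0.16, with 24 MRPL (49.0%) and 11 MRPS genes (39.3%) lower, against 28.7% of all genes. The difference between subunits was described only, since genes are not replicates of a condition.

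**Figure D3:**
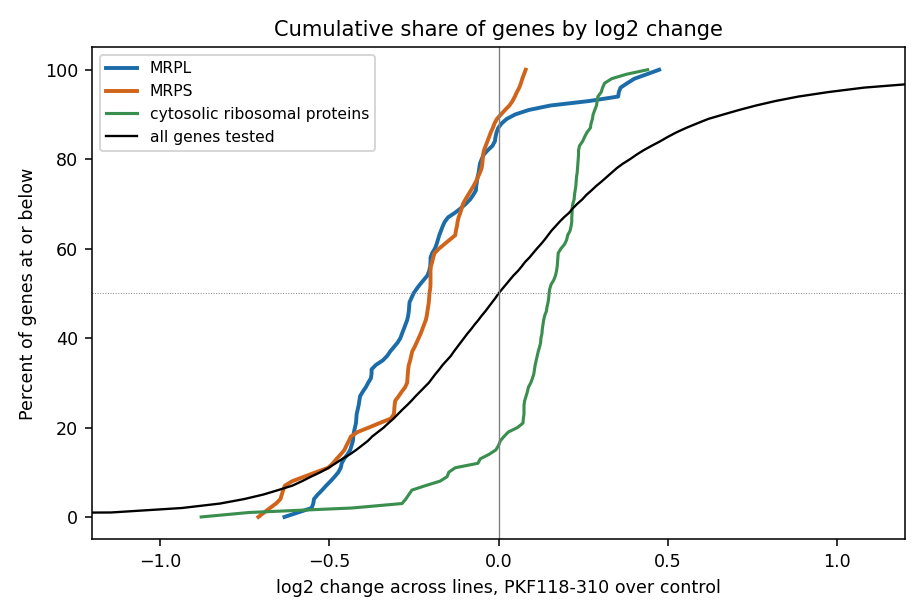
Cumulative percent of genes (vertical) by log2 change across lines (horizontal) for 49 MRPL genes (blue), 28 MRPS genes (orange), 84 cytosolic ribosomal protein genes (green) and 13280 genes tested (black). The MRPL and MRPS curves cross 50% at −0.25 and −0.20, the cytosolic curve at 0.15 and the curve of all genes at 0.0.

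The reads gave a similar picture. MRPL genes held 62.3% of members' reads in CUTLL1 with PKF118-310 (95% Wilson interval 61.8 to 62.8) against 63.5% in control (63.0 to 64.0), and 63.7% in TIB153 with PKF118-310 (63.2 to 64.2) against 64.3% in control (63.8 to 64.8). The intervals did not overlap in CUTLL1 and overlapped in TIB153. Summed MRPL reads had a log2 ratio of −0.29 in CUTLL1 (−0.32 to −0.26) and −0.21 in TIB153 (−0.24 to −0.19), and summed MRPS reads −0.22 (−0.25 to −0.18) and −0.18 (−0.21 to −0.14). With MRPS18A and MRPS30 placed in the large subunit and MRPS36 left out, the median log2 changes were −0.23 for 51 large and −0.21 for 25 small subunit genes.

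None of the members whose symbol departs from the particle, and none of the S18 family, was called. MRPS18A had 41.4 CPM with PKF118-310 against 41.1 CPM in control CUTLL1 and 42.5 CPM with PKF118-310 against 45.7 CPM in control TIB153 (log2 change −0.10 ± 0.16, SE). MRPS18B (mS40) and MRPS18C (bS18m), the paralogs in the small subunit, had log2 changes of −0.01 ± 0.13 and −0.05 ± 0.17 (SE), and MRPS30 0.08 ± 0.14 (SE), with edgeR adjusted p above the threshold in each. MRPS18A and MRPS18C share 47.0% and 40.2% of their exonic bases with genes on the other strand. MRPS36 had 13.7 CPM with PKF118-310 against 18.7 CPM in control CUTLL1 and 23.3 CPM with PKF118-310 against 29 CPM in control TIB153 (−0.43 ± 0.21, SE), below its control in both lines but not called. MRPS12 (uS12m, at the decoding center) had a log2 change of −0.21 ± 0.16 (SE), and MRPL45 (mL45, the anchor of the ribosome at the membrane) −0.20 ± 0.14 (SE), neither of which was called.

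Each member was filed here under a site of the particle, and a set may leave out proteins that also lie there. The 4 members around the peptidyl transferase center (MRPL2, MRPL3, MRPL16 and MRPL27) were lower beyond counting error in both lines, against 15.7% of all genes. Their median log2 change was −0.37 with 1 call. Of all genes, 6.78% fell, the share to set beside the calls of each site. The 5 members filed under the exit tunnel had a median of −0.42 with 2 calls (MRPL23 and MRPL24), MRPL22 lying above 0. The called MRPL4 was filed under the core, whose 16 members had a median of −0.24 with 2 calls. The 4 members filed under the small subunit head (MRPS7, MRPS9, MRPS10 and MRPS14) had a median of −0.36 with 1 call. The 7 members of the central protuberance had a median of −0.09 and the 5 of the L7/L12 stalk one of −0.18, with 0 calls each by edgeR and by DESeq2. These sites had median levels of 33.1 and 21.5 CPM, against 55.8 to 67.3 CPM for the sites described before them. They hold the low-count genes MRPL38 and MRPL46 (protuberance) and MRPL12 and MRPL53 (stalk), so fewer calls and uncertain medians may come from low counts. This was not tested. At an unadjusted p under 0.05 there was 0 in the central protuberance and 1 in the stalk, MRPL10, which was higher with PKF118-310. Summed reads of the stalk members had log2 ratios of −0.10 (−0.21 to 0.01) in CUTLL1 and 0.04 (−0.06 to 0.15) in TIB153.

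**Figure D4:**
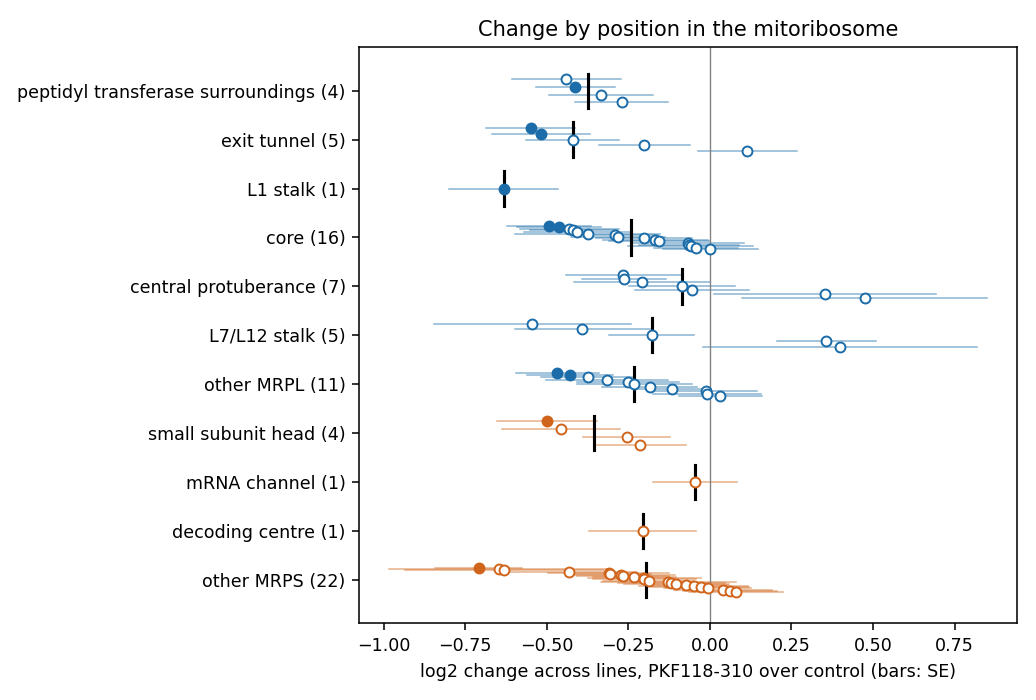
Log2 change across lines (horizontal) of 77 members by their position in the mitoribosome (vertical, number of members in parentheses), MRPL in blue and MRPS in orange, filled where adjusted p was under 0.05. Thin bars are the SE and black ticks the medians, which lie at −0.37 around the peptidyl transferase center and −0.09 in the central protuberance. The median level was 55.8 CPM in the first site and 33.1 CPM in the second, which holds low-count genes.

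Members with a bacterial counterpart included 7 of the 10 calls (7 of 45 tested, 15.6%), with a median of −0.27. Mitochondria-specific members included 3 (3 of 32, 9.38%), with a median of −0.19, where 6.78% of all genes fell. In CUTLL1 34 of 45 members with a counterpart (75.6%) were lower beyond counting error, and 13 of 32 mitochondria-specific members (40.6%), against 23.9% of all genes. In TIB153 these were 23 of 45 (51.1%) and 12 of 32 (37.5%), against 28.7% of all genes. Across the 77 members, which are not independent replicates, Spearman's rho of the log2 change was −0.03 with mean CPM and 0.15 with exon length.

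A total of 25 members start head to head with a protein-coding gene, the start lying within 1000 bases or overlapping by at most 500 bases. The neighbors had a median log2 change of −0.03. In 24 pairs tested, 2 neighbors fell and 0 rose (edgeR), where 6.78% of all genes fell and 6.11% rose. Member and neighbor both lay below 0 in 12 of these pairs. The 24 pairs count MRPL46 with MRPS11 from each side. The neighbors that fell were TCP1, a subunit of the cytosolic chaperonin next to MRPL18 (log2 change −0.57 ± 0.13, SE, edgeR adjusted p = 0.0144, MRPL18 at −0.26), and NDUFS6, a complex I subunit next to MRPL36 (−0.48 ± 0.13, SE, edgeR adjusted p = 0.0296). MRPL46 and MRPS11 are each other's neighbors, 34 bases apart, and in TIB153 MRPL46 had a log2 ratio of 0.78 where MRPS11 had −0.46, with 90 reads of MRPL46 with PKF118-310 against 48 in control and 332 reads of MRPS11 with PKF118-310 against 418 in control.

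The calls among other genes of mitochondrial translation were falls, with shares of 40.0% of mitoribosome proteins with other symbols, 11.8% of translation factors and 7.69% of assembly and rRNA modification genes, the last being near the 6.78% of all genes. Of the 5 mitoribosome proteins with other symbols 2 fell: PTCD3, a pentatricopeptide repeat protein of the small subunit (119 CPM with PKF118-310 against 159 CPM in control CUTLL1 and 88.0 CPM with PKF118-310 against 142 CPM in control TIB153, log2 change −0.60, edgeR adjusted p = 0.0102), and GADD45GIP1 (mL64, −0.50, adjusted p = 0.0285). Of 17 translation factors 2 fell, MTFMT, which formylates the initiator tRNA (−0.88, edgeR adjusted p = 0.0196), and GFM2, a recycling factor (−0.57, adjusted p = 0.0261). Of 26 assembly and rRNA modification genes 2 fell, RBFA (−0.86, edgeR adjusted p = 0.0229) and RPUSD3 (−0.59, adjusted p = 0.0316). These lists had medians of −0.29, −0.30 and −0.13. None of their genes rose, including at an unadjusted p under 0.05, where 1847 of all 13280 genes tested were higher. Beyond counting error in both lines, 1 translation factor was higher (MTIF2, log2 ratios 0.27 in CUTLL1 and 0.34 in TIB153) and 7 were lower. These were 5.88% and 41.2% of that list, against 13.1% and 15.7% of all genes.

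Upstream of translation, 3 of 11 genes of mitochondrial DNA transcription and upkeep fell (27.3%, against 6.78% of all genes). They were SSBP1, PNPT1 and TFAM, at −0.50, −0.48 and −0.43 (edgeR adjusted p = 0.0171, 0.0249 and 0.0349). For genes of the lists outside the members, calls are given for the reported edgeR fit only. Of 9 transcription factors and coactivators linked to mitochondrial biogenesis 1 fell (11.1%, against 6.78% of all genes). It was PPARGC1B, with 20.1 CPM with PKF118-310 against 31.2 CPM in control CUTLL1 and 20.4 CPM with PKF118-310 against 44.3 CPM in control TIB153 (−0.94 ± 0.20, SE, edgeR adjusted p = 0.00951). GABPA, an ETS factor, was at −0.22 and its partner GABPB1 at 0.36, MYC was at −0.21 and NRF1 at 0.09, none of them called. Of 59 nuclear genes of respiratory complexes 4 fell and 0 rose (6.78%, against 6.78% of all genes, 1 at an unadjusted p under 0.05 above 0), with a median of −0.13.

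Of the messenger RNAs that the mitoribosome translates, 7 of 13 (53.8%) were lower in both lines beyond counting error, against 15.7% of all genes. They lay at a median of 2680 CPM, against 31.8 CPM for the median gene tested, so that small ratios pass this measure. Within counting error in both lines were 0 of them, against 31.1% of all genes. All 13 messenger RNAs of mitochondrial DNA were lower beyond counting error in CUTLL1 (summed log2 ratio −0.49), against 23.9% of all genes. In TIB153 7 were lower and 5 were higher (summed 0.05), against 28.7% and 25.2% of all genes. Across lines 4 fell (30.8%, against 6.78% of all genes). They were MT-ND5, MT-ND3, MT-ND6 and MT-CO3, at −1.04, −0.76, −0.73 and −0.51 (edgeR adjusted p = 0.00115, 0.0032, 0.00466 and 0.0336). The cytosolic ribosomal protein genes lay on the other side of 0: 70 of 84 had a log2 change above 0, with a median of 0.15. In this list 1 rose (RPS27, edgeR adjusted p = 0.0374), where 6.11% of all genes rose. Another 2 fell (2.38%, against 6.78% of all genes), RPL36A and RPL7L1, a paralog of a ribosomal protein gene. The sum of the list had log2 ratios of 0.08 in CUTLL1 and 0.24 in TIB153. With total-count scaling instead of TMM, the median of the mitoribosome members was −0.17 over the lines, again below 0.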

How the data were processed

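RNA extracted with Trizol, cleaned on columns and selected with poly(T) beads had been made into stranded libraries. The deposited lane files hold whole-number read counts per gene, made by the authors and not normalized. Tools named in the submitters' notes are HISAT2, HTSeq and DESeq2 on hg38, without versions. For the counting, strand handling was not given in the sources used here. The authors also deposited 2 tables of their own comparison, holding counts, fold changes and p-values, which were not used. All 78 members had GENCODE v29 coordinates. Reads on 75 family pseudogenes were 0.23% of the family's reads.

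Lanes were summed per library. Within a line, log2 ratios used TMM-scaled counts with a pseudocount of 0.5, with exact binomial 95% intervals on the treated share, which cover counting error only and give no p. Across lines, edgeR 4.0.16 (R 4.3.3) quasi-likelihood tests with line as a block were fitted to 13280 genes passing filterByExpr, two-sided, with Benjamini-Hochberg adjustment over all of them. With 1 residual degree of freedom, SE and p rest mostly on the spread pooled over genes (median prior degrees of freedom 13). DESeq2 1.42.0 was an alternative. The labels call the lanes technical replicates, so lanes did not enter the tests as replicates. The SE was the absolute log2 change divided by the square root of the F statistic. Alternatives changed scaling, filter, test, block, lanes, lines, pseudocount, subunit assignment and member set.

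Named members were the 6 highest and 6 lowest mean ratios at 5 CPM or more, the calls across lines (up to 10 per direction), members with opposite intervals, the 3 highest and 3 lowest per kilobase, and MRPL12, MRPL45, MRPS12, MRPS18A, MRPS18B, MRPS18C, MRPS30 and MRPS36; from other lists, up to 4 by smallest p. Members at an unadjusted p under 0.05, members whose line intervals did not overlap, MRPL40, MRPS11, MYC, GABPA, GABPB1, NRF1 and the neighbors were named after their values were seen. Members and lists were chosen with earlier results of these data known.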

Additional observations from a re-analysis of the deposited data

Results flagged for a closer look

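The log2 ratio of MRPS6 in CUTLL1 exceeded that in TIB153 by 0.82, with its value above 0 in CUTLL1 and below 0 in TIB153 beyond counting error. The difference between lines was not tested, because each group held 1 library.

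Reads outside the members were present on 2 pseudogenes of MRPS31, which encodes the small subunit protein mS31. Their raw read numbers were larger with PKF118-310 in both lines, but they are small and no counting interval is given for them. MRPS31P5 held 127 reads in all, with 28 with PKF118-310 against 17 in control CUTLL1 and 55 with PKF118-310 against 27 in control TIB153. MRPS31P4 held 36 reads, with 13 with PKF118-310 against 3 in control CUTLL1 and 12 with PKF118-310 against 8 in control TIB153. MRPS31 itself held 1092 reads, at 269 with PKF118-310 against 259 in control CUTLL1 and 261 with PKF118-310 against 303 in control TIB153. The other pseudogene with at least 10 reads, MRPL45P2, held 151 reads, the most of the family's pseudogenes. Its read number was not larger with PKF118-310 in both lines, with 49 with PKF118-310 against 26 in control CUTLL1 and 36 with PKF118-310 against 40 in control TIB153. Reads that fit both a pseudogene and its parent may be split or dropped in counting, and this was not tested.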

How the results depend on the processing

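With 1 library per group and 2 lines, the number of calls was the least stable result. Fallen members, 10 in the reported fit (8 MRPL, 2 MRPS), were 3 with total counts only (2 and 1), 3 with lane 2 only (2 and 1), 1 by DESeq2's Wald test (0 and 1) and 0 without the line block (0 and 0). In the first 3 of these fits the share of fallen members (3.9%, 3.9% and 1.35%) was not above that of all genes (4.22%, 5.05% and 2.44%), unlike in the reported fit. DESeq2 size factors left 8, of which 1 was MRPS, lane 1 alone gave 9, and no filter on low counts gave 13, which held all 10. MRPS27 alone remained in each fit but the one without the block. Risen members were 0 in every fit.

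Medians kept their sign in each alternative. The median of the mean ratio over both lines (−0.23 for members) was −0.16 without CUTLL1 and −0.27 without TIB153. For MRPS genes it was −0.21, and −0.15 with total counts only and −0.16 without CUTLL1, the within-line medians with total counts only were −0.17 in CUTLL1 and −0.10 in TIB153, and TIB153 without a filter gave −0.20. The change of MRPS18B turned to 0.05 with total counts only and 0.028 with lane 2 only, and that of MRPS18C to 0.007 with total counts only and 0.021 with lane 1 only, none of them called. The cause of these differences was not tested. The reported fit compares PKF118-310 with control within each line. Members under 10 CPM carry wide intervals, and differences between lines cannot be tested.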
